A study of Homo sapiens with 10 samples.

Results

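Kelly cells, a neuroblastoma line with amplified MYCN, were found to carry 11657 RCOR2 regions that lie away from protein-coding gene ends and outside both deposited region classes, RCOR2-high and RCOR2-low. They made up 32.5% of the 35875 RCOR2 consensus regions, each a merged peak holding at least 1 peak of both induced RCOR2 libraries. Of these consensus regions, 20388 lay over 2 kb from either end of every RefSeq protein-coding gene (GRCh38). Leaving out those that overlapped a listed region left 14505, and leaving out those with a peak in either uninduced library left the 11657. RCOR2 peaks, the absence of uninduced peaks, the absence from the lists and the distance from gene ends are therefore the values the regions were chosen by, and they are described below without a test. Most of the regions held a peak of no other protein mapped, and 6.53% of those that could be checked lay on an annotated gene start (9.61% of all RCOR2 regions over 2 kb from gene ends), so the distance rule, which uses the outer ends of genes, did not keep away from every promoter.

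Chromatin immunoprecipitation with sequencing (ChIP-seq) was used to map 4 proteins in 10 libraries, which formed 5 groups of 2 replicates. RCOR2 carrying a 3xF (FLAG) tag was precipitated with the anti-FLAG M2 antibody from Kelly cells given doxycycline at 2 µg/mL, and its background came from the same kind of cells without treatment. For RCOR1 and RCOR3, antibodies to the proteins themselves were used on untreated Kelly cells, and LSD1 was precipitated from untreated Kelly cells of a line named for an shRNA against RUNX1T1. The labels give a time of 48 h for every library and do not say that replicates were separate cultures. RCOR2 was thus read from a tagged, induced protein and the other proteins from the cells' own, and LSD1 also from another derivative of the line. Effects of the tag, induction, antibody and derivative cannot be told apart from differences between proteins. The files hold peaks and no read counts, so the depth is unknown. Replicates 1 and 2 held 79594 and 62409 peaks with induced RCOR2 and 10735 and 15509 without induction. There were 19611 and 20163 peaks of LSD1, 49991 and 18827 of RCOR1, and 13833 and 28863 of RCOR3.

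RCOR1, RCOR2 and RCOR3 are the CoREST proteins, scaffolds that join the histone demethylase LSD1 (KDM1A) to histone deacetylases. The complex was described as a corepressor that REST brings to neuronal genes in cells that are not neurons. RCOR2 is best known from stem cells and the developing nervous system. A sympathetic (adrenergic) and a mesenchymal state, each with its own set of transcription factors, are known in neuroblastoma.

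The genomic sequence of the regions themselves was not used here, so the sequences shown are the 250 bases before RefSeq gene starts on which such regions lay (GRCh38.p14), each written 5′ to 3′ on the strand of its gene. They were picked after their values were seen: 5 lay on well-ranked regions and show how the letters vary, and RUNX1 is a gene of the LSD1-CoREST list used below. Capitals mark the GC box GGGCGG or its reverse complement CCGCCC, with overlapping matches counted. TPPP codes for a protein that promotes tubulin polymerization, TJP1 for the tight junction scaffold ZO-1 and PCGF5 for a Polycomb RING finger protein. RUNX1 is a transcription factor of blood and sensory neuron development, ARHGEF7 a guanine nucleotide exchange factor, and LINC02256 a long non-coding RNA.
TPPP, chr5:693353-693602, minus strand: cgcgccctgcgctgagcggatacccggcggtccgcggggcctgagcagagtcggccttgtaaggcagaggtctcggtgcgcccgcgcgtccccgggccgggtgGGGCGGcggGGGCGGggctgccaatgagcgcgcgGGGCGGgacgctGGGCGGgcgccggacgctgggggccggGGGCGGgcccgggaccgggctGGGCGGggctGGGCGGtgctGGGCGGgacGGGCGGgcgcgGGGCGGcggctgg
TJP1, chr15:29822469-29822718, minus strand: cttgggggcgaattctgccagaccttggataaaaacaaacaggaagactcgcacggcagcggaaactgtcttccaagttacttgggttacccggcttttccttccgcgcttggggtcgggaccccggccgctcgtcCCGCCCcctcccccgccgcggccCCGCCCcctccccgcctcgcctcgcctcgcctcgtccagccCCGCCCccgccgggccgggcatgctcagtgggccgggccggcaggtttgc
PCGF5, chr10:91220413-91220662, plus strand: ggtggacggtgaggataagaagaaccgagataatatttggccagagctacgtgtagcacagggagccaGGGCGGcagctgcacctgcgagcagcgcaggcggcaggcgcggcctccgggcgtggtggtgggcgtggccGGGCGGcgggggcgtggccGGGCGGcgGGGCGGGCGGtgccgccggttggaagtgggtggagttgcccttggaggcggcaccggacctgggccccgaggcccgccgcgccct
RUNX1, chr21:34888700-34888949, minus strand: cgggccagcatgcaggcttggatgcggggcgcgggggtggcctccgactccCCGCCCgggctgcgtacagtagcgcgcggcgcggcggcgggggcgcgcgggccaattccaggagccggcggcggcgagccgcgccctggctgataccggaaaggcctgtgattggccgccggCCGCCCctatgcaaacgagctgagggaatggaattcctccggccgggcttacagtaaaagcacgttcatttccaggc
LINC02256, chr15:32536509-32536758, plus strand: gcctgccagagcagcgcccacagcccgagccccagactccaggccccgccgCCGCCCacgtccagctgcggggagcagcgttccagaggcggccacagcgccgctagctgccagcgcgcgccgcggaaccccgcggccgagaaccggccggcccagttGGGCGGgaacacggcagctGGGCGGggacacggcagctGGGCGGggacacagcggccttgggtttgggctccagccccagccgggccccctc
ARHGEF7, chr13:111153416-111153665, plus strand: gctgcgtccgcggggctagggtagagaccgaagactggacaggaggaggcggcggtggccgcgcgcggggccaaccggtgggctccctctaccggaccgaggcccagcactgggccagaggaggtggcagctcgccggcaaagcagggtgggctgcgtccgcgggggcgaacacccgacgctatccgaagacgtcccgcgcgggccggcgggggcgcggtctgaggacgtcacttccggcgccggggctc
GC content was high in all 6 windows and the number of GC boxes varied. The TPPP window held 10 GC boxes and 41 CpG dinucleotides at 84.0% GC. PCGF5 had 5 GC boxes, LINC02256 had 4, TJP1 had 3 and RUNX1 had 2. The ARHGEF7 window held none, at 75.2% GC and 34 CpG. RCOR2 fold enrichment over these starts, as the authors' peak caller gave it, was 19.9 in induced replicate 1 and 40.9 in induced replicate 2 at TPPP. It was 19.4 and 37.2 at TJP1, 17.1 and 44.1 at PCGF5, 20.1 and 51.0 at LINC02256, and 17.9 and 43.3 at ARHGEF7. The RUNX1 region (chr21:34888503-34890343) had 8.85 and 14.9 and lay on a start inside the gene. Replicate 2 gave the higher value at all 6.

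LSD1 was close to absent from the 11657 regions. A peak of LSD1 replicate 1 lay in 45 regions (0.386%, 95% Wilson interval 0.289 to 0.516) and one of replicate 2 in 23 (0.197%, interval 0.132 to 0.296), with 21 regions holding both. Over all 35875 RCOR2 regions, listed ones and those with an uninduced peak included, the shares were 9.68% and 8.03%. The mean LSD1 share of 0.292% became 3.56% when distal unlisted regions with an uninduced peak were kept in, and RCOR1 and RCOR3 then had 11.2% and 8.69%. Wilson intervals here cover counting error only, since neighbouring regions are not independent. RCOR1 peaks lay in 1034 regions (8.87%) in replicate 1 and 228 (1.96%) in replicate 2, against 47.6% and 28.7% of all RCOR2 regions. RCOR3 peaks lay in 78 regions (0.669%) in replicate 1 and 535 (4.59%) in replicate 2, against 17.9% and 25.1%. The library with more peaks gave the larger share for both RCOR1 and RCOR3. Means over the 2 libraries were 0.292 ± 0.133% for LSD1, 5.41 ± 4.89% for RCOR1 and 2.63 ± 2.77% for RCOR3 (SD, n = 2 each). With equal numbers of top peaks taken from every LSD1, RCOR1 and RCOR3 library, the means were 0.189%, 1.03% and 1.47%, so the order of RCOR1 and RCOR3 turned. With a 50% reciprocal overlap they were 0.168%, 1.95% and 0.470%. The difference between LSD1 and RCOR3 was -2.34 percentage points, which is within the spread of the RCOR3 replicates. An exact two-sided permutation test over the 4 libraries gave p = 0.33, the smallest it can give (0.833 after Benjamini-Hochberg adjustment over 5 tests). The difference was -0.861 points without RCOR2 replicate 1, -0.377 without RCOR3 replicate 2, -4.30 without RCOR3 replicate 1 and -0.303 with the 50% reciprocal overlap. When the regions were built from a single induced library, the LSD1 share was 0.534% without RCOR2 replicate 1, over 27349 regions, and 0.292% without replicate 2, over 38167. The RCOR1 share was 2.58% without RCOR2 replicate 2, and the RCOR3 share 1.39% without replicate 1.

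**Figure D1:**
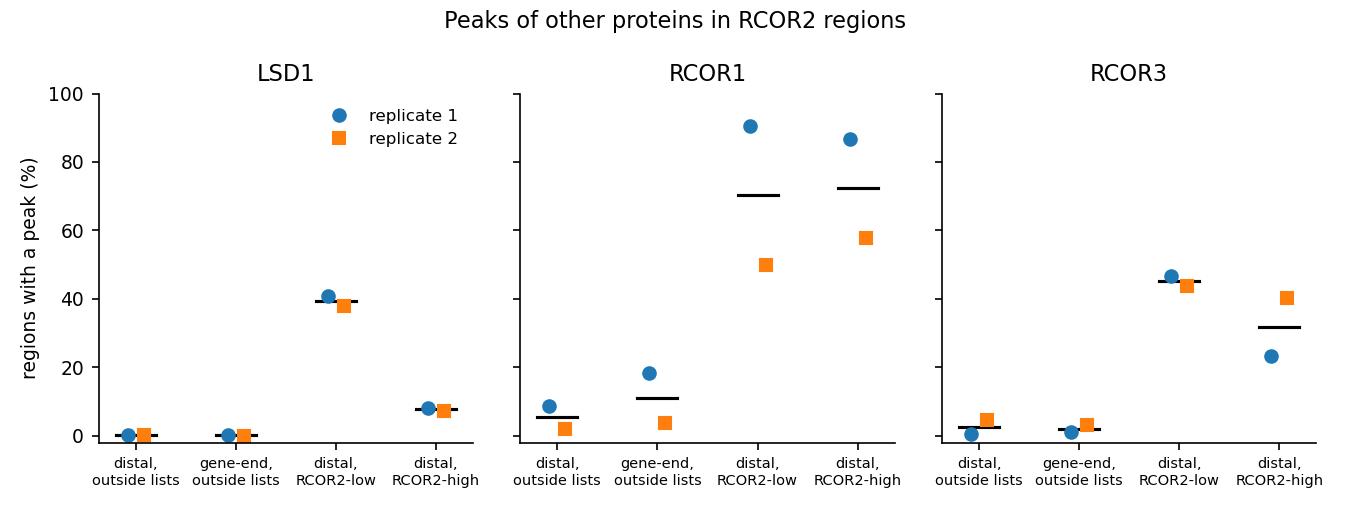
Share of RCOR2 regions (percent, vertical axis) with a peak of LSD1, RCOR1 or RCOR3 in 4 region classes, all without an uninduced peak; circles are replicate 1, squares replicate 2 and bars the mean of both. The distal regions outside both lists sit near the bottom for LSD1 (0.386% and 0.197%), and the distal RCOR2-low regions reach 40.9% and 37.9%.

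Most of the regions, 10190 of 11657 (87.4%, 95% Wilson interval 86.8 to 88.0), held no peak of any RCOR1, RCOR3 or LSD1 library, against 47.1% of all RCOR2 regions. The absence from the lists bears on this count. Of the merged regions with both induced RCOR2 libraries, 70.0% were listed where RCOR1 replicate 1 but not replicate 2 had a peak. Where RCOR1 had none, 5.59% were listed. These merged regions include those near gene ends and those with an uninduced peak. RCOR1 alone accompanied RCOR2 in 868 regions, RCOR3 alone in 355, and both without LSD1 in 197. All 3 other proteins had a peak in 25 regions, RCOR1 and LSD1 in 14, LSD1 alone in 7, and RCOR3 and LSD1 in 1. In the regions with RCOR3 alone the median RCOR2 fold enrichment was 9.23 in replicate 1 and 11.1 in replicate 2, and in those with no other protein 6.09 and 6.91. Regions with RCOR1 alone had 7.19 and 8.41, and the 25 with all 3 had 6.96 and 5.85. Median RCOR2 enrichment was thus higher where RCOR3 or RCOR1 was the only companion than where none was found.

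LSD1 peaks lay mostly in regions that also held RCOR1. Of the 1104 regions with an RCOR1 peak in either library, 3.35% held a peak of LSD1 replicate 1 and 1.99% one of replicate 2. Of the 10553 without RCOR1, 8 and 1 regions did. In the distal RCOR2-low regions with RCOR1, LSD1 shares were 44.1% and 40.7%. RCOR3 followed the same order among the distal unlisted regions, at 6.16% and 17% with RCOR1 and 0.0948% and 3.29% without it.

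LSD1 was rare at unlisted regions near gene ends too, and more frequent at listed distal ones. The 5690 RCOR2 regions within 2 kb of a gene end were likewise unlisted and without uninduced peaks. LSD1 shares were 0.386% and 0.197% in the distal regions and 0.387% and 0.0703% in the gene-end regions, differences of -0.000609 and 0.127 points (exact two-sided sign-flip test over 2 libraries, p = 1). For RCOR3 the differences, distal minus gene-end, were -0.473 points in replicate 1 and 1.5 points in replicate 2 (exact sign-flip p = 1), so the replicates disagreed in sign. The mean RCOR3 difference was 0.51 points, and -0.112 points without RCOR2 replicate 1. These small differences hold with the uninduced filter. With regions holding an uninduced peak kept, the mean differences were 3.23 points for LSD1 and 5.47 points for RCOR3. RCOR1 was less frequent at the distal regions, at 8.87% and 1.96% against 18.3% and 3.88% at gene ends. Against the 3799 distal RCOR2-low regions, LSD1 lay in 0.386% and 0.197% of the distal unlisted regions and 40.9% and 37.9% of RCOR2-low, differences of -40.5 and -37.7 points. RCOR3 lay in 0.669% and 4.59% of the distal unlisted regions and 46.8% and 43.6% of distal RCOR2-low, differences of -46.1 and -39.1 points. Both libraries of both proteins gave the same sign, and the smallest exact sign-flip p with 2 libraries is 0.5 (0.833 adjusted). The 570 distal RCOR2-high regions held LSD1 in 8.07% and 7.37%, RCOR1 in 86.8% and 57.9%, and RCOR3 in 23.3% and 40.2%.

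The sources used here do not state how the authors made the RCOR2-high and RCOR2-low lists, and the lists themselves divide LSD1. They hold 6673 and 24637 regions, and 97.2% of the listed regions have exactly the bounds of merged RCOR1 and induced RCOR2 peaks. Of the 12695 LSD1 consensus regions, 21 (0.165%) were among the distal unlisted regions and 10192 (80.3%) in a list. Merged regions with an RCOR1 replicate 1 peak alone held LSD1 of both libraries in 0.941% of the 11153 outside the lists, against 46.0% of the 8989 inside. Those with both induced RCOR2 libraries and no RCOR1 held it in 0.0176% of 17092 outside, against 1.48% of 1012 inside. The part that the making of the lists has in the low shares of LSD1, RCOR1 and RCOR3 was not tested.

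RCOR2 enrichment was modest and broad in range. Fold enrichment, the authors' value per peak, had a median of 6.11 in replicate 1 and 7.15 in replicate 2 (mean of the medians 6.63 ± 0.73, SD, n = 2). The central 90% ran over 3.98 to 12.5 in replicate 1 and 4.03 to 19.2 in replicate 2, with maxima of 55.9 and 84.0. The medians were 6.64 and 9.57 in gene-end unlisted regions, 7.19 and 6.38 in distal RCOR2-low, and 16.8 and 34.2 in distal RCOR2-high. The median width was 495 bp, with an interquartile range of 353 to 709, against 646 bp in gene-end unlisted, 546 bp in distal RCOR2-low and 1093 bp in distal RCOR2-high regions. Fold values of the 2 replicates correlated across the 11657 regions with Pearson's r = 0.54 and Spearman's rho = 0.41, a description over regions that share their libraries.

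**Figure D2:**
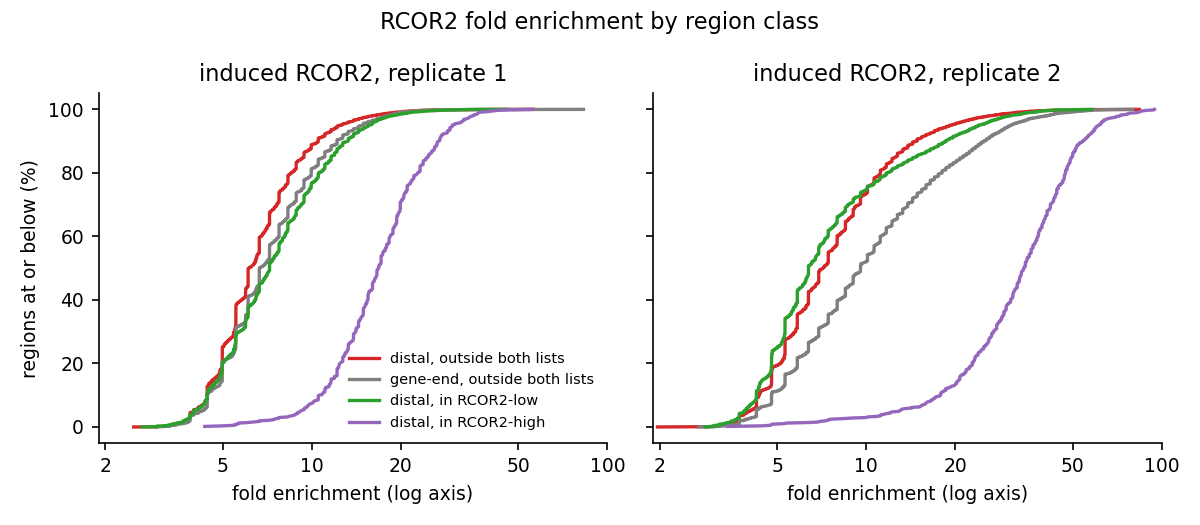
Cumulative share of regions (percent, vertical axis) at or below each RCOR2 fold enrichment (horizontal log axis) in the 2 induced replicates, by region class. The distal regions outside both lists lie close to distal RCOR2-low in replicate 1 (medians 6.11 and 7.19) and well left of distal RCOR2-high (median 16.8).

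Summits of the 2 induced libraries fell within the same region by the rule, and their distance is given as a description. The highest points of their best peaks lay a median of 75 bp apart, and within 100 bp in 59.5% of the regions. The median gap was 89 bp in gene-end unlisted regions, 70 bp in distal RCOR2-low and 81 bp in distal RCOR2-high. Agreement between libraries was only partial. Replicate 1 had 38167 distal unlisted peaks that overlapped no uninduced peak, and replicate 2 had 27349. Of these, 31.5% and 45.5% fell in the 11657 regions. Peaks in them had median folds of 6.09 in replicate 1 and 6.91 in replicate 2, and peaks outside them 4.91 and 5.14. A peak matched in the other library counts as outside where the merged region failed the rule. The 2 shares can therefore understate the agreement.

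Ranked by the lower of the 2 replicate percentiles of −log10 q-value and cut into 5 groups of equal size, the regions changed in make-up mainly at the top. The strongest group (2332 regions, median folds 9.47 and 13.3) held RCOR1 in 16.3% and 5.57%, and RCOR3 in 1.16% and 12%. In the weakest group (median folds 4.43 and 4.36) the shares were 7.55% and 1.16% for RCOR1 and 0.729% and 2.62% for RCOR3. LSD1 lay in 7 and 4 regions of the strongest group (0.300% and 0.172%) and in 13 and 7 of the weakest (0.557% and 0.300%). The group next to the strongest had 5 and 3 (0.215% and 0.129%). These counts are too small to read an order from. The share on an annotated start window was 13.1% in the strongest group and 3.99% in the weakest. Median width was 759 bp in the strongest group and 397 bp in the weakest. A wider region can meet a peak or window more readily, and the part of width was not tested.

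Several of the strongest regions lay together on chromosome 5. Regions at chr5:70719196-70720268, chr5:70290143-70290906, chr5:71289354-71290413 and chr5:69844099-69844959 had folds of 53.1 and 79.7, 50.3 and 71.2, 55.9 and 67.5, and 55.9 and 57.4. None lay in a coding gene. The nearest coding ends were those of SERF1A (180401 bp away), LOC124900998 (74074 bp), LOC124900993 (52864 bp) and LOC124900996 (56833 bp). All 4 held peaks of RCOR1 replicate 2 and RCOR3 replicate 2. None held LSD1, which lay in only 0.403% of all 11657 regions in either library. This stretch is known for large near-identical duplications, and the sources used here do not state how reads with several matches were placed, so its values are uncertain. A further region at chr17:22379099-22379515 had folds of 38.6 and 47.5. Its nearest coding end, that of the potassium channel gene KCNJ18, was 674487 bp away. The unknown placement of reads with several matches may bear on this region too.

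Of the other 5 of the 10 strongest, those nearest to BBC3 and OR4F3 lay in no coding gene. The rest lay inside one. They were inside SYBU, whose product links vesicles to kinesin (27.1 and 64.3), inside IQSEC3, a synaptic exchange factor for ARF proteins (24.7 and 37.0), and inside CHMP1A, an ESCRT-III subunit (17.9 and 33.3). BBC3, which codes for the pro-apoptotic protein PUMA, was the nearest gene to a region with 24.8 and 41.3 (6552 bp away). The olfactory receptor gene OR4F3 was nearest to one with 23.8 and 51.6 (66658 bp away). None of the 10 held LSD1, which only 0.403% of all 11657 regions did in either library.

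LSD1 had a peak of both libraries in 21 regions. The best-ranked of the 21 lay in TMEM132E (chr17:34616111-34616683), a transmembrane protein gene, with RCOR2 folds of 20.5 and 12.8, and it held peaks of all RCOR1 and RCOR3 libraries too. The next 4 were in LOC105371206 or nearest to SPATA31A3, UQCRFS1 and CNTNAP3, with folds between 5.57 and 15.8 in replicate 1 and 6.97 and 8.92 in replicate 2. The ends of SPATA31A3, UQCRFS1 and CNTNAP3 were far off, at 424660, 1495327 and 118194 bp. SPATA31A3 and CNTNAP3 belong to families with near-identical copies, so these positions are uncertain. How reads with several matches were placed is not stated, so other regions named in this paragraph may share this doubt. Of the 35 regions with RCOR3 in both libraries, the best-ranked lay in JAK3, a cytokine receptor kinase gene, with 23.9 and 36.1. The others named by rank lay nearest to OR11H1, in ZNG1E, nearest to PIM1, a serine/threonine kinase gene (16.0 and 39.9, with LSD1 in replicate 1), and nearest to PI4KA, a lipid kinase gene (14.3 and 17.3). The end of OR11H1 was 3702881 bp away, that of PIM1 67187 bp and that of PI4KA 3165 bp.

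The regions were spread over long distances. Their median distance to the nearest protein-coding gene end was 21241 bp, with an interquartile range of 7571 to 65054 and a maximum of 4828162 bp. Within 10 kb lay 31.4%, over 100 kb lay 2117 (18.2%) and over 1 Mb lay 193 (1.66%). Inside a protein-coding gene body lay 5974 (51.2%, 95% interval 50.3 to 52.2), against 47.9% of all RCOR2 regions over 2 kb from gene ends, 53.5% of distal RCOR2-low and 59.8% of distal RCOR2-high. Just inside the rule, 421 regions at 2000 to 2500 bp had median folds of 6.09 and 6.91 and RCOR1 replicate 1 in 13.3%. Just outside, 479 regions at 1500 to 2000 bp had 6.09 and 7.43, and 12.9%. RCOR3 of either library lay in 6 of the regions just inside and 14 of those just outside, and LSD1 in 0 and 1.

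**Figure D3:**
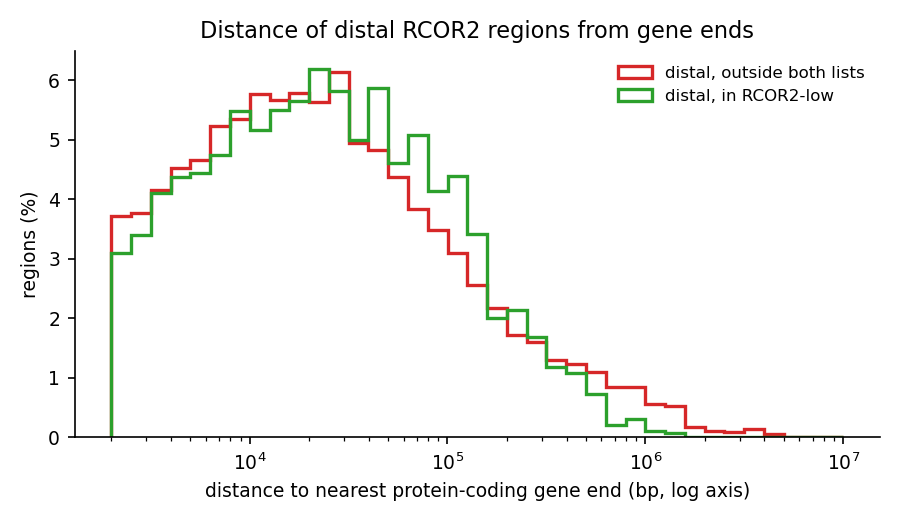
Share of regions (percent, vertical axis) by distance from the nearest protein-coding gene end (bp, horizontal log axis), for distal regions outside both lists and distal RCOR2-low regions. Both begin at 2 kb by the rule; the distal regions outside both lists have a median of 21241 bp and 193 regions over 1 Mb.

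A larger share of the regions than of the other classes lay toward chromosome ends. Within 5 Mb of the outermost RefSeq gene lay 29.0% of them (3385), against 25.2% of gene-end unlisted, 18.7% of distal RCOR2-low, 17.5% of distal RCOR2-high and 21.7% of all RCOR2 regions. Of the protein-coding genes, 13.4% lay there. The regions on one chromosome share their copy number and annotation, so these shares are descriptions. Counts per 100 coding genes varied between 23.7 on chromosome X and 94.1 on chromosome 13, with 89.5 on chromosome 9, 89.1 on 21 and 86.1 on 7. As a share of all RCOR2 regions over 2 kb from gene ends, they were 68.6% on X and 65.7% on 13, where the count per gene was lowest and highest. The nearest other such region was a median of 26527 bp away, and 36.3% had one within 10 kb. A listed region lay within 1 kb of 677 (5.81%), and the median distance to one was 24040 bp.

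**Figure D4:**
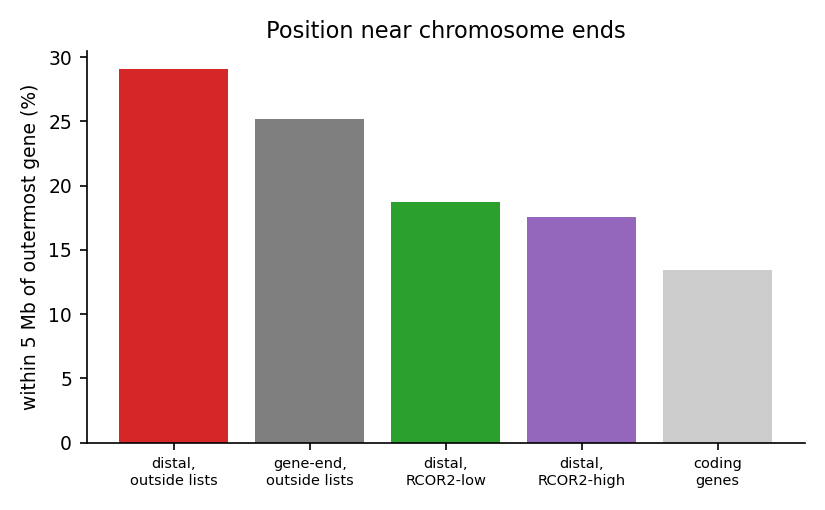
Share of RCOR2 regions in each class, and of protein-coding genes, that lie within 5 Mb of the outermost RefSeq gene of their chromosome (percent, bars from 0). The distal regions outside both lists stand at 29.0%, distal RCOR2-low at 18.7% and coding genes at 13.4%.

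Gene starts that the distance rule left in were GC-rich. On the chromosomes with start windows (250 bases before to 50 after a RefSeq gene start), 731 of 11197 regions lay on a window, 6.53% against 9.61% of all RCOR2 regions over 2 kb from gene ends. It was 376 of 3668 in distal RCOR2-low (10.3%) and 243 of 558 in distal RCOR2-high (43.5%). The 900 windows touched belonged to 453 protein-coding and 447 lncRNA genes. Their median GC content was 67.7%, with 25 CpG per window and an observed-to-expected CpG ratio of 0.762. All 34961 windows had 58.7%, 14 and 0.580, and the 18244 windows touched by no RCOR2 region 48.0%, 4 and 0.242. A GC box (GGGCGG or CCGCCC) was present in 68.7% of the touched windows and 45.0% of all. The TATA box letters TATAAA, on either strand, were in 3.67% against 11.5%, and the E-box letters CACGTG in 7.22% against 7.27%. Windows touched by gene-end unlisted regions held a GC box in 78.6%, by distal RCOR2-low in 60.3% and by distal RCOR2-high in 81.7%. These are matches of letters in fixed windows.

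Regions on such starts were wider and more enriched than the rest. Their median width was 642 bp and median folds 7.19 and 10.5, against 488 bp, 6.09 and 6.91 in the 10466 regions elsewhere. RCOR1 peaks lay in 23.9% and 5.47% of them, against 7.85% and 1.77% elsewhere. The best-ranked non-coding genes included HAR1B, a lncRNA at a region of fast human evolution, with folds of 18.6 and 28.5 at its start. In all, 1862 of the 11657 regions overlapped lncRNA genes, 496 overlapped pseudogenes and 10 overlapped tRNA genes. Of all 20388 RCOR2 regions over 2 kb from gene ends, 3504, 651 and 75 did.

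A small number of regions lay on microRNA genes. Of 1558 hairpins in the RefSeq table, 25 with a listed mature sequence were overlapped. Counted over all hairpins, 26 regions lay on one. Over all chromosomes used, 31 of the 11657 regions overlapped a microRNA gene. Of all 20388 RCOR2 regions over 2 kb from gene ends, 75 did. The mature sequences of 4 microRNAs follow, chosen after their values were seen because a pair of them shares a seed and the other 2 had the best-ranked regions. Capitals mark the seed, bases 2 to 8.
hsa-miR-200b-3p: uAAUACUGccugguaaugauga
hsa-miR-429: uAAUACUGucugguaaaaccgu
hsa-miR-4785: aGAGUCGGcgacgccgccagc
hsa-miR-210-3p: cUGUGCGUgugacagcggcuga
MIR200B and MIR429, neighbours in a cluster known for keeping cells epithelial through repression of ZEB1 and ZEB2, share the seed AAUACUG. Their regions, chr1:1166738-1167771 and chr1:1168733-1170237, had folds of 8.08 and 7.13, and 5.98 and 6.18. The region at MIR210, a hypoxia-induced microRNA, had 7.19 in replicate 1 and 35.1 in replicate 2. MIR4785, inside RBMS1, lay under a region with 12.2 and 17.

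Coding genes differed widely in how many of these regions their bodies held. At least 1 lay in the body of 3388 genes (17% of 19974), and 165 genes held 5 or more. Genes with a region had a median length of 66163 bp, against 19538 bp for genes without. PTPRN2, a phosphatase-like protein of dense-core vesicles, held 41 and MAD1L1, of the spindle checkpoint, 38. EXD3 held 25. BAHCC1 held 22. RXRA, the retinoid X receptor alpha, MEGF6, CHLSN and GSE1 held 21 each, and COL18A1, a basement membrane collagen, 19. No LSD1 peak lay in any of these regions, and RCOR1 peaks lay in 1 to 4 of them per gene, against 0.403% and 9.47% of all 11657 regions with a peak in either library.

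Counted in the body or as the nearest gene within 100 kb, the regions reached 5887 coding genes, 29.5% of 19974. In the lists below, "with a region" has this meaning, and no test was made on a list. Of 30 adrenergic regulators, 20 had a region. MEIS1 had 7, SIX3 and TFAP2B 5 each, TBX3 and GATA3 3 each, and ZNF536, TBX2, PBX3, ISL1, SOX4 and INSM1 2 each. HAND2, SOX11, LMO1, GATA2, SOX6, ALK, EYA1, MEIS2 and HAND1 had 1 each. Those with none included PHOX2A, MYCN, KLF7, DACH1, SATB1, HEY1, RET and RUNX1T1.

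The regions at adrenergic genes were of ordinary to moderate strength. The region near HAND2, a core factor of the sympathetic lineage, had folds of 11.9 and 14.1, and that near SOX11 11.1 and 13.3. Inside LMO1, a transcriptional cofactor gene tied to neuroblastoma risk, the folds were 9.40 and 21.3. Inside ALK, a receptor kinase gene mutated in some neuroblastomas, they were 4.77 and 10.0. The best region of MEIS1, a homeobox factor, had 9.23 and 10.1, and that of GATA3 7.34 and 6.25. None of the adrenergic genes' 44 regions held LSD1, and 6 of them, each at another gene, held RCOR1. Of all the regions, 0.403% held LSD1 and 9.47% RCOR1 in either library. The list had 0.431 regions per 100 kb of gene body, against 0.477 over all coding genes. Of its 44 regions, 17 lay in the bodies and 27 outside. Over all coding genes, 6163 of 10980, counted gene by gene, lay in the bodies. Why the share of genes was high was not tested.

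**Figure D5:**
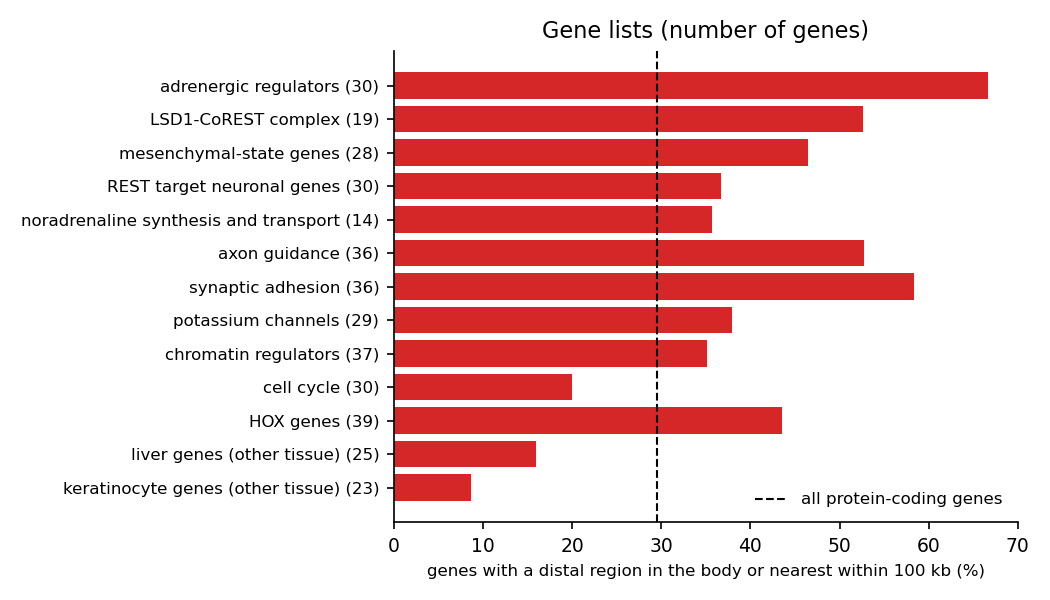
Share of genes in each list (percent, bars from 0) with a distal region outside both lists in the body or with the gene end nearest within 100 kb; the dashed line is the share of all coding genes, 29.5%. Adrenergic regulators stand at 66.7%, and keratinocyte genes, a list of another tissue, at 8.70%.

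Of 19 genes of the LSD1-CoREST complex and its partners, 10 had a region. GSE1, whose product is found with the complex, carried 21 of the list's 38 regions in gene bodies, the best with folds of 11.1 and 21.8. GSE1 held 71 RCOR2 regions of all kinds, and over the genome 32.5% of RCOR2 regions met the rule. CBFA2T3, a relative of RUNX1T1, had 8 and RUNX1 had 3. RCOR1 had 2, the better with 18.3 and 15.4. SNAI2, GFI1, RCOR3, CBFA2T2 and RCOR2 had 1 each. The region in RCOR2 itself had 4.98 and 4.25. None of these regions held LSD1, which only 0.403% of all 11657 regions did in either library.

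Among neuronal lists the shares were 19 of 36 for axon guidance, 21 of 36 for synaptic adhesion, 11 of 30 for REST target genes and 11 of 29 for potassium channels. PLXNA1, a semaphorin receptor gene, had 7 regions, and the best at ROBO1, a Slit receptor gene, had 20.5 and 26.6. UNC5A, SEMA3D and NTN1 had 4 each and PLXNC1 3. TENM3 had 8, TENM4 and PTPRS 6 each, NRXN2, a presynaptic neurexin gene, 5, and CNTNAP2 4. Of the REST targets, GRIN1 had 4, CACNA1A and UNC13A 3 each, L1CAM 2 and MMP24 1. CHGA, coding for the granule protein chromogranin A, had 1 with 15.5 and 28.2. KCNN3 and KCNN2 had 3 each, KCNMA1 and KCNK2 2 each, and KCNA2 1. These genes are long, with median lengths of 232 kb for axon guidance and 660 kb for synaptic adhesion against 24.2 kb over all coding genes, and per 100 kb of body the lists had 0.260 and 0.151 regions.

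Noradrenaline genes had a region in 5 of 14. TH, the first enzyme of catecholamine synthesis, had 5 regions, the best with 17.9 and 7.44. CYB561, DDC and DBH had 1 each. Mesenchymal-state genes had one in 13 of 28, with 5 in NOTCH3 (best 14.9 and 22.3) and 2 each at TBX18, MEF2D and WWTR1, and 1 at TEAD1.

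HOX genes had a region in 17 of 39, at 4.80 per 100 kb of body in genes of 3.79 kb median length. HOXC4 had 7, HOXD3 3, and HOXB9, HOXD8, HOXB3 and HOXB4 2 each, and neighbouring HOX genes can share a region. Chromatin regulators had one in 13 of 37, with BRD1 and DNMT3A at 5 each, HDAC4 and KDM4C at 4 each, and TET3 at 3. Cell cycle genes had one in 6 of 30, with RBL1 at 4 and CCND1, RB1, PLK1, CCNE1 and CDKN1A at 1 each. Of the lists of other tissues, 4 of 25 liver genes (TF, CYP2E1, FGG and APOB) and 2 of 23 keratinocyte genes (KRT17 and PKP1) had one. No region of a gene named from these lists held LSD1, which only 0.403% of all the regions did.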

How the data were processed

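ChIP-seq peaks of 10 libraries from Kelly cells were used. Reads were aligned to GRCh38 with BWA 0.7.17 with peaks from MACS2 (per the submitters' processing notes, where deepTools is listed too). Each deposited list holds 1 library's peaks with 2 values from the authors' peak caller: a fold enrichment, which is a ratio over local background, and the −log10 of a q-value, whose smallest values lie near a q-value of 0.05. The deposited RCOR2-high and RCOR2-low lists hold positions only. Their definition, the control library, duplicate handling and later filters have no entry in the sources used here. In some lists the peak names number the replicates in another way, and the labels were followed.

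Peaks on chromosomes 1 to 22 and X were merged, touching peaks included, and an overlap of at least 1 bp counted. Genes came from a RefSeq table of GRCh38. Sequences came from RefSeq tables of GRCh38.p14, and values on gene starts and microRNAs leave out chromosome 8, which these tables do not cover here. All comparison classes leave out regions with an uninduced peak. Fold per region is the highest of its peaks in each library. Shares were compared over libraries with exact permutation or sign-flip tests, adjusted over 5 tests. The overlap and distance steps were tried first on simulated regions, and the tests were not. Wilson intervals are at 95%. Alternatives changed the overlap, the peak threshold, the distance, the gene set, the uninduced filter, the list margin, the MYCN surroundings and the libraries used.

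The regions and 13 gene lists (376 of 377 symbols matched) were chosen with earlier results of these data known. Named were the 10 regions with the best lower rank, the 5 best with LSD1 and with RCOR3 in both libraries, the 10 genes holding most regions, all adrenergic and LSD1-CoREST genes with a region, up to 6 genes of each other list and up to 10 non-coding genes. Some genes that this rule names are not reported here. Summit gaps, chromosome ends, start windows and microRNAs were added after the data were seen. Python 3.11.15, numpy 2.4.6, pandas 2.3.3, scipy 1.17.1 and matplotlib 3.10.9 were used.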

Additional observations from a re-analysis of the deposited data

Results flagged for a closer look

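Peaks outside chromosomes 1 to 22 and X entered no comparison, and the induced RCOR2 lists held more of them than the uninduced FLAG lists: 3951 in replicate 1 and 2683 in replicate 2 with induction, against 482 and 551 without. As a share of each list these were 4.96% and 4.30% with induction, against 4.49% and 3.55% without.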

How the results depend on the processing

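Of 135 recalculated values, 3 changed sign, 25 moved past the replicate SD, the 95% interval or, for the number, 1.5 times, and 107 did neither. The tested differences among the 107 only kept their sign, and RCOR1 and RCOR3 shares, whose SDs are wide, could move several times over within it. With a 50% reciprocal overlap the number of regions was 7760, the share in gene bodies 49.5% and the median distance to a gene end 23178 bp. With peaks above their library's median score these were 4833, 48.9% and 22739 bp, with an LSD1 share of 0.124% and a median fold of 9.47. Over 10 kb from gene ends the body share was 45.1% and the distance 40479 bp, and over 2 kb from all RefSeq genes the body share was 56.5%. With regions holding an uninduced peak kept, LSD1 had 3.56%, RCOR3 8.69% and RCOR1 11.2%, the body share was 45.1% and the distance 26884 bp. Lists widened by 1 kb gave a body share of 50.3%. Leaving out 1 library at a time, the number lay between 27349 and 38167, the LSD1 share between 0.197% and 0.534%, the body share between 47.7% and 50.3%, the median distance between 24652 and 28487 bp and the median fold between 4.98 and 5.77; these builds need a peak of 1 induced library only. With 1 library left out at a time, the distal minus gene-end difference lay between -0.473 and 1.5 points for RCOR3. It was -0.112 without RCOR2 replicate 1. For LSD1 it lay between -0.000609 and 0.181 points. With regions holding an uninduced peak kept, the differences were larger, 5.47 points for RCOR3 and 3.23 points for LSD1. With the replicate number as a block, LSD1 minus RCOR3 was -2.34 points (exact sign-flip p = 0.5, the smallest possible); no label says that equal numbers pair the libraries. The cause of these moves was not tested. With no read depth and 2 libraries a group, the exact tests over libraries could not pass 0.05.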

Other observations

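Distal unlisted RCOR2 regions that did overlap an uninduced FLAG peak, 2848 in number, held the other proteins far more often than the 11657 regions without one. LSD1 lay in 13.8% and 20.1% of them, RCOR1 in 34.7% and 34.8%, and RCOR3 in 11.0% and 55.9% (replicates 1 and 2). Their median RCOR2 fold enrichment was 8.42 in replicate 1 and 5.77 in replicate 2. No test was made, since uninduced peaks chose the 2 sets.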
